A study of Mus musculus with 2 samples.

Results

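Cluster 5 of the deposited cell table is the group of cells whose leading transcripts include *Krt4* and *Krt19*, keratins of the conjunctival epithelium. All cells carrying that cluster number were taken, 2301 of 28867 cells in all. Of these, 1100 of 16450 cells came from the unwounded library (UW) and 1201 of 12417 from the wounded library (W). Corneas of male mice aged 6 to 8 weeks were dissociated for droplet single-cell RNA-seq, in which each captured RNA molecule carries a unique molecular identifier (UMI). UW pooled 4 mice, and W pooled 4 mice in which a central area of the epithelium 2.5 mm across had been scraped away 24 h earlier. The mouse strain is not given in the sources used here. The excised corneas were digested with dispase for 18 h, then with trypsin for the epithelial layer and collagenase for the rest.

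The conjunctival epithelium is a stratified, non-keratinized sheet that continues the corneal epithelium beyond the limbus, the border zone that houses the corneal stem cells. It is known for a keratin set that differs from that of the cornea, with KRT4, KRT13 and KRT19 in place of the corneal keratin KRT12, for membrane-bound mucins at its surface and for goblet cells that secrete the gel-forming mucin MUC5AC. Healing corneas are known to draw on neighbouring limbal epithelium, and conjunctival cells can spread onto the cornea when the limbus fails.

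There was 1 library per condition, so none of the differences below has a replicate check and no test was made. For each gene the UMIs of all cluster 5 cells in a library were added up and expressed per 1000000 UMIs of that total (CPM), and W was set against UW as a log2 ratio with a 95% interval. All intervals cover counting error only. The sums held 26939531 UMIs in UW and 36169419 in W. Cells of cluster 5 had a median of 24009 UMIs and 4207 genes in UW, and of 28144 UMIs and 4428 genes in W. Mitochondrial genes took a median of 3.38% of a cell's UMIs in UW and 2.94% in W. No cell barcode of the cluster was found in both libraries, against 52 among all cells. An early run of the authors' doublet caller had marked 41 UW and 56 W cells of the cluster, which stayed in the deposited table.

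Of the 5 genes listed as markers, 4 were higher in cluster 5 than in every other epithelial cluster in both libraries, and *Krt17* was so in W but not in UW. *Krt4*, a type II keratin of wet stratified epithelia, was at 3016 CPM in UW and 3291 CPM in W. *Krt19*, a small type I keratin found in simple and stratified epithelia alike, was at 1489 CPM in UW and 1727 CPM in W. *Serpinb3a*, a serine and cysteine protease inhibitor of the clade B serpins, was at 729 CPM in UW and 1582 CPM in W. These 3 genes had at least 7-fold more CPM in cluster 5 than in the other 9 epithelial clusters summed, in both libraries. *Krt17*, a keratin of appendages and stressed epithelium, was at 627 CPM in UW and 2454 CPM in W. *Alox15*, a lipoxygenase that oxidizes polyunsaturated fatty acids, was the scarcest of the markers at 59.6 CPM in UW and 95.9 CPM in W. Since the clusters were made from these genes, the comparison with other clusters is a description.

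The label was checked against markers that the rule did not use. *Krt12*, the keratin of the corneal epithelium, was at 5205 CPM in UW and 2230 CPM in W in cluster 5, against 28650 CPM and 14157 CPM in the other epithelial clusters summed. Taken singly, those clusters ranged from 5086 to 42955 CPM in UW and from 1368 to 28424 CPM in W, with cluster 9 below cluster 5 in both libraries, so low *Krt12* was not particular to cluster 5. Cells were also thinned to 5000 UMIs each, which left 1066 UW and 1173 W cells, to compare cells at a fixed depth. The median thinned cell of cluster 5 then held 6 *Krt12* UMIs in UW and 4 in W, close to the 8 and 3 in cluster 0, a keratocyte-like cluster of the stroma with *Kera* at 7482 CPM in UW and 2537 CPM in W, and beside medians of 10 and 4 in cluster 9. The typical *Krt12* count was thus lower than in these stromal cells in UW and higher by 1 UMI in W. Cluster 0 cells had a median depth of 11853 UMIs in UW and 17588 in W before thinning. The upper quartile of cluster 5 reached 19 *Krt12* UMIs in UW and 10 in W, with single cells at up to 216 and 134. Goblet cell genes were mixed. *Muc5ac*, *Muc5b* and *Tff2* had 0 UMIs in both libraries, which allows up to 3 counts, and *Spdef*, the goblet cell regulator, had 0 UMIs in UW and 3 in W. Of 12 goblet cell genes in the table, *Agr2*, a disulfide isomerase that folds secreted mucins, was the only one that reached 50 CPM, and did so in W alone, at 39.2 CPM in UW and 91.2 CPM in W, above the highest of the other epithelial clusters (10.4 CPM and 57.7 CPM). The list summed to 56.2 CPM in UW and 112 CPM in W in cluster 5, against 21.8 CPM and 26.6 CPM in the other epithelial clusters and 65.4 CPM and 54.9 CPM in cluster 0. The gel-forming mucins *Muc5ac* and *Muc5b* were thus not detected. *Krt13*, the conjunctival keratin that is not among the listed markers, was abundant in cluster 5 but no higher than in some other epithelial clusters, as given below, so the conjunctival label rests mainly on the listed markers. *Pax6*, a regulator of the ocular surface lineage, was at 271 CPM in UW and 231 CPM in W.

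Of the 5 markers, *Krt19* and *Krt17* lie in the same gene cluster and the other 3 elsewhere. In GENCODE M21 on GRCm38, *Krt19* lies on chromosome 11 from 100140810 to 100148665, beside *Krt15* (100131758 to 100135928) and *Krt13* (100117327 to 100121566), with *Krt14* (100203162 to 100207548) and *Krt17* (100256217 to 100261029) in the same type I keratin cluster. *Krt4* lies on chromosome 15 from 101918535 to 101924735 in the type II keratin cluster, with *Krt8* from 101996698 to 102004482. *Alox12e* (70315610 to 70322628) and *Alox15* (70344152 to 70352031) are neighbours elsewhere on chromosome 11, and *Serpinb3a* is on chromosome 1 from 107045587 to 107052303.

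Promoters are shown for the leading marker *Serpinb3a* and for *Alox12e*, the epidermal-type lipoxygenase, because both had far higher levels in the cluster than in other epithelium and differed in opposite directions between the libraries. The sequences are from RefSeq on GRCm38.p6, 250 bases before to 50 bases after the gene's start, read 5′ to 3′ on the gene's strand. The *Serpinb3a* window is chr1:107052254-107052553 on the minus strand and the *Alox12e* window is chr11:70322481-70322780 on the minus strand. Capitals mark matches on either strand to TATAAA (the TATA box), CCACCC (KLF), TGANTCA (AP-1), GGAATG (TEAD), the interferon-stimulated response element and the NF-kB site.
Serpinb3a: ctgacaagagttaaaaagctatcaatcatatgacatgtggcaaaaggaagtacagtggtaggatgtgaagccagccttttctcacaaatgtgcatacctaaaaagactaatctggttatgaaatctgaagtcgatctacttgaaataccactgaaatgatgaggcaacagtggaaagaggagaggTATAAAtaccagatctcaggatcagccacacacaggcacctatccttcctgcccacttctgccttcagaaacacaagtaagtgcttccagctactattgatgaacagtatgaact
Alox12e: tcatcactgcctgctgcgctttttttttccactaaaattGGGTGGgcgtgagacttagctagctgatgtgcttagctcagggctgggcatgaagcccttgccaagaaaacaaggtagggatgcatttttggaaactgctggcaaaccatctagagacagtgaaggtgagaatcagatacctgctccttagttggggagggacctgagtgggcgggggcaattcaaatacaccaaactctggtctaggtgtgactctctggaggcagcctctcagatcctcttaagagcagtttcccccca
*Serpinb3a* held 1 match to the letters TATAAA, starting 65 bases before the gene's start, a motif present in 13.6% of 32817 promoters. *Alox12e* held 1 KLF match 211 bases before its start, a motif in 31.5% of the promoters. The matches are descriptions of these windows. Neither window held an AP-1 match, found in 7.81% of promoters.

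Across clusters, the markers stood apart to different degrees. In the other 9 epithelial clusters *Serpinb3a* ranged from 1.52 to 31.4 CPM in UW and from 26.5 to 127 CPM in W. *Krt4* ranged from 12.8 to 269.8 CPM in UW and from 47.4 to 616 CPM in W. *Krt19* ranged from 7.38 to 171 CPM in UW, but reached 1058 CPM in cluster 7 in W, closer to the 1727 CPM of cluster 5. *Krt17* was higher in cluster 9 than in cluster 5 in UW, at 1388 CPM against 627 CPM, and in W the order was turned, at 1787 CPM against 2454 CPM. *Krt7*, a simple epithelial keratin, was also higher in another cluster, with 815 CPM in UW and 1622 CPM in W in cluster 7 against 525 CPM and 473 CPM in cluster 5. *Krt13*, the usual type I partner of KRT4, was not particular to the cluster either, at 4471 CPM in UW and 5725 CPM in W against 5461 CPM and 11220 CPM in cluster 6. *Krt15*, a type I keratin of basal and limbal cells, was the most abundant keratin of cluster 5 at 23158 CPM in UW and 21102 CPM in W, and the next highest cluster held 6770 CPM in UW and 12933 CPM in W.

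**Figure D1:**
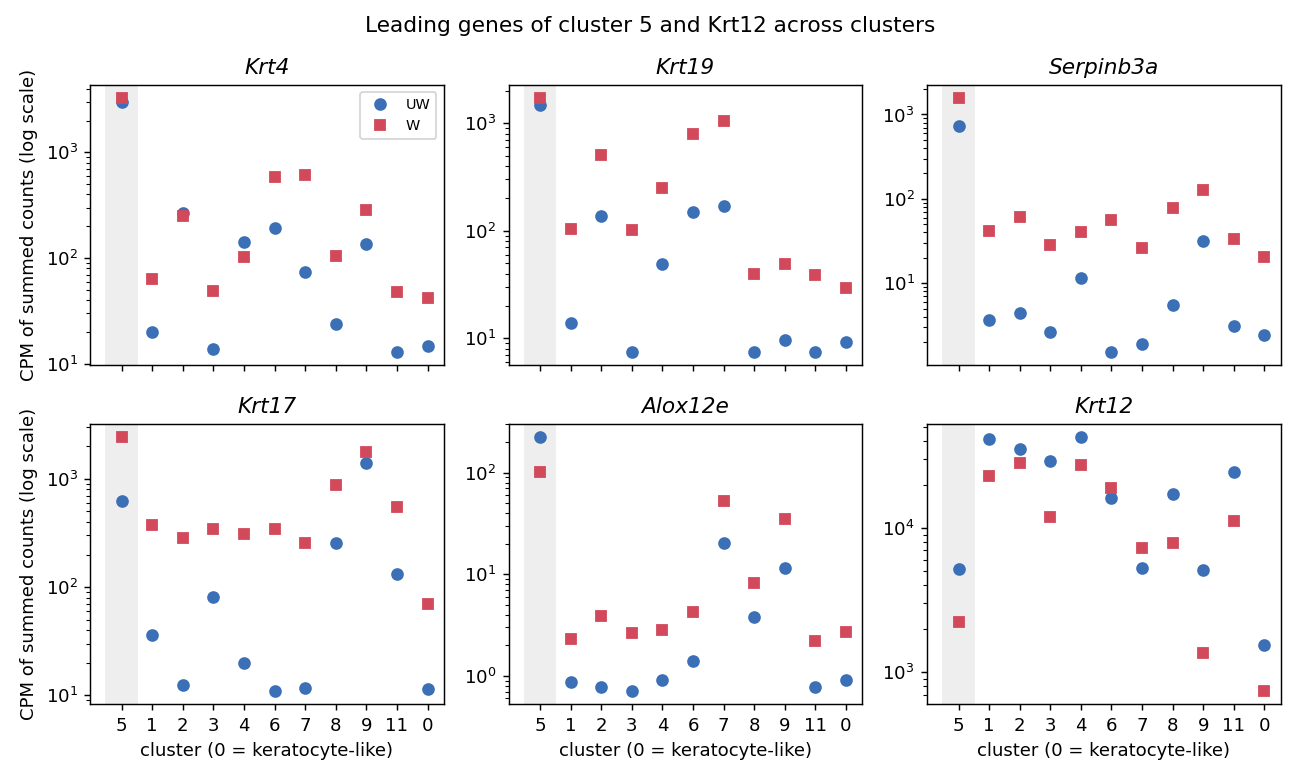
Levels of 6 genes in cluster 5 (shaded), the other 9 epithelial clusters and the keratocyte-like cluster 0, as CPM of summed counts on a log axis, with UW as circles and W as squares. *Krt4* and *Serpinb3a* are highest in cluster 5 in both libraries, *Krt17* is matched by cluster 9, *Krt12* is among the lowest of the epithelial clusters, and the W points of *Krt19*, *Serpinb3a* and *Krt17* lie above the UW points in every cluster, the keratocyte-like one included.

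Of 2106 genes with at least 50 CPM in cluster 5 in both libraries, 62 (2.94%) had at least 2-fold more CPM there than in the other epithelial clusters summed in both, and 46 of 2034 (2.26%) had at least 2-fold less. Among genes at 100 CPM or more in cluster 5 in both libraries, the 15 with the largest ratio, ranked by the lower of the libraries, were *Serpinb3a*, *Krt4*, *Alox12e*, *Krt19*, *Acsm1*, *Krt15*, *Cyp2f2*, *Tppp3*, *Pir*, *Krt17*, *Upp1*, *Krt7*, *Cmah*, *Oit1* and *Cbr2*. This ratio is to the summed clusters, and a single epithelial cluster was above cluster 5 in W for *Cyp2f2*, *Tppp3*, *Oit1* and *Krt7* and in UW for *Krt17* and *Krt7*. *Tppp3* was at 119 CPM in UW and 106 CPM in W against 75.9 CPM and 123 CPM in cluster 9, and *Oit1* at 191 CPM and 187 CPM against 85.1 CPM and 194 CPM in cluster 6. *Serpinb3a* led with 143-fold in UW and 25.9-fold in W, followed by *Krt4* with 25.2-fold and 16.9-fold. *Alox12e* was at 62.3-fold in UW and 9.17-fold in W. Below 100 CPM, the marker *Alox15* was at 163-fold in UW and 9.87-fold in W, and *4833423E24Rik* at 49.3-fold and 11.8-fold. Several of the rest encode enzymes. *Acsm1*, a medium-chain acyl-CoA synthetase, was at 222 CPM in UW and 119 CPM in W. *Cyp2f2*, a cytochrome P450 best known from airway club cells, was at 219 CPM in UW and 129 CPM in W, and was higher still in cluster 0 at 1813 CPM and 1145 CPM. *Cbr2*, a carbonyl reductase also known from airway epithelium, was at 2672 CPM in UW and 393 CPM in W. *Upp1*, a uridine phosphorylase, was at 378 CPM in UW and 803 CPM in W, and *Cmah*, which hydroxylates sialic acid, was at 335 CPM and 208 CPM. For 14 of these 15 genes the fold was smaller in W than in UW, the exception being *Acsm1* with 4.87-fold in UW and 5.73-fold in W. The same count over all 2106 genes is not given here. The summed clusters also differ in their mix between the libraries, so the count of 14 is not read as a result about cluster 5.

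Cluster 5 made up 6.69% (95% exact Clopper-Pearson interval 6.31 to 7.08) of UW cells and 9.67% (9.16 to 10.2) of W cells. With epithelial cells alone as the denominator, the UW share was 8.15% (7.69 to 8.62) and the W share 14.1% (13.4 to 14.9). The share was larger in W by either denominator and beyond counting error. A different yield of these cells from each pool cannot be told apart from a different share in the tissue, and the genes that define the cluster themselves differed between the libraries.

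Between the libraries, 2806 genes of cluster 5 reached 50 CPM in either library and 20 counts in total. Of these, 163 (5.81%) were at least 2-fold higher in W and 209 (7.45%) at least 2-fold lower, 13.3% in all. The median log2 ratio over the genes tested was -0.08, with quartiles of -0.53 and 0.38. Most of these genes differed in the same way in the neighbouring epithelium. Of the 163 higher genes, 145 were also at least 2-fold higher in the other epithelial clusters and 74 in the keratocyte-like cluster 0. Of the 209 lower genes, 171 and 50 were at least 2-fold lower there. The share of all 2806 genes that passed 2-fold in those clusters is not given here, so the overlap is a description. Over the same genes the median log2 ratio in the other epithelial clusters was -0.03.

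**Figure D2:**
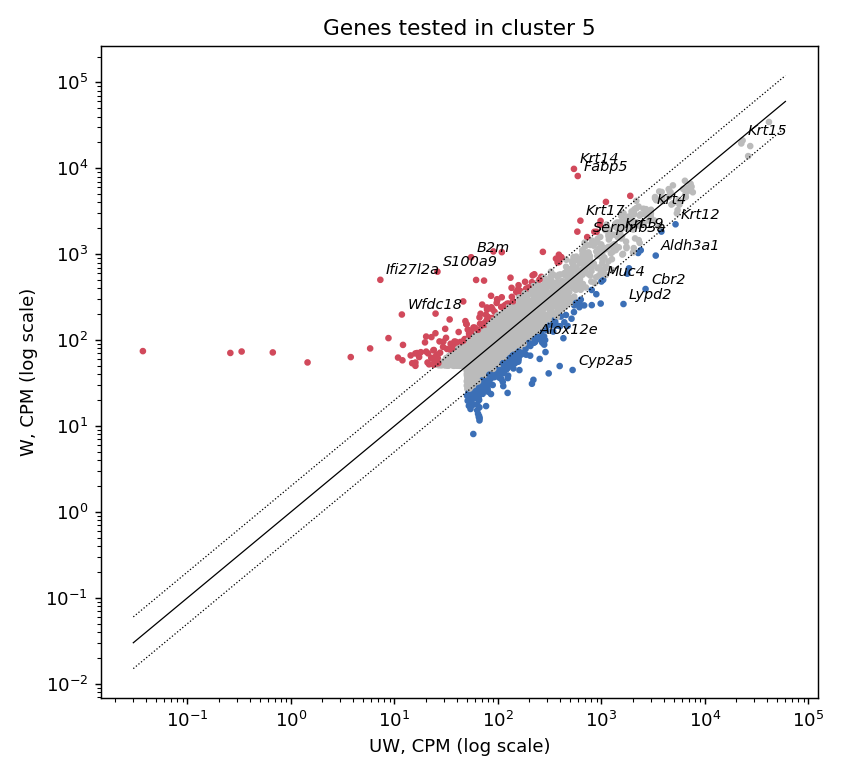
Each point is 1 of the 2806 genes tested in cluster 5, with UW CPM on the x axis and W CPM on the y axis, both log scales. The solid line marks equal levels and the dotted lines 2-fold, with genes at least 2-fold higher in W in red and at least 2-fold lower in blue. *Krt14* and *Fabp5* are the abundant genes farthest above the line, *Cbr2*, *Lypd2* and *Cyp2a5* lie far below it, and *Krt4*, *Krt19* and *Krt15* lie close to it.

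The largest and smallest ratios were taken among genes at 100 CPM in either library. A gene that reached it in W alone could only be higher there, and in UW alone only lower. Of the 15 largest, only *Krt14*, *Fabp5* and *Lgals7* reached it in both. The genes highest in W over UW included an abundant keratin and a lipid carrier. *Krt14*, the type I keratin of basal and activated keratinocytes, was at 543 CPM in UW and 9845 CPM in W, a log2 ratio of 4.18 (4.16 to 4.20). *Fabp5*, the epidermal fatty acid binding protein, was at 591 CPM in UW and 8129 CPM in W, with a log2 ratio of 3.78 (3.76 to 3.80). Neither was particular to cluster 5. In the other epithelial clusters *Krt14* had a log2 ratio of 4.48 and *Fabp5* of 3.84. In cluster 0, *Krt14* was at 57.4 CPM in UW and 821 CPM in W. The median thinned cell of cluster 5 held 0 *Krt14* UMIs in UW and 40 in W, against 0 and 4 in cluster 0. The part that RNA carried over between cells has in these *Krt14* levels was not tested.

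Genes of interferon response and antigen display were also among the 15 largest ratios. The 3 given here were below 100 CPM in UW and were named through their W level alone. *Ifi27l2a*, an interferon-inducible mitochondrial protein, was at 7.31 CPM in UW and 503 CPM in W (log2 ratio 6.10, 5.90 to 6.31). *B2m*, the light chain of every class I molecule, was at 55.1 CPM in UW and 921 CPM in W (log2 ratio 4.06, 3.99 to 4.14). *Ifitm3*, an antiviral membrane protein, was at 90.5 CPM in UW and 1076 CPM in W (log2 ratio 3.57, 3.51 to 3.63). All 3 were also higher in W in each of the other 9 epithelial clusters, and over their sum the log2 ratios were 7.58, 4.04 and 5.12. Cluster 0 held more of each than cluster 5 in both libraries, for *Ifi27l2a* 97.5 CPM and 1375 CPM.

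The promoters of *B2m* and *Ifitm3* are shown because these genes had the largest ratios among the interferon-stimulated and class I genes at 50 CPM in both libraries. The windows are chr2:122147437-122147736 on the plus strand and chr7:141010695-141010994 on the minus strand, from RefSeq on GRCm38.p6 as above, with the same motifs in capitals.
B2m: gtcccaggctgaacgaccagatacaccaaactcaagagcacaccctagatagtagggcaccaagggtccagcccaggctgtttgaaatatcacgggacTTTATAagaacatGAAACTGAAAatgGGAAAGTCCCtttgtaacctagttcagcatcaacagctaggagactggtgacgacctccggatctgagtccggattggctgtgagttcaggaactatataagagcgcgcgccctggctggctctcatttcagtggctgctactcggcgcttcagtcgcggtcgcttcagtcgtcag
Ifitm3: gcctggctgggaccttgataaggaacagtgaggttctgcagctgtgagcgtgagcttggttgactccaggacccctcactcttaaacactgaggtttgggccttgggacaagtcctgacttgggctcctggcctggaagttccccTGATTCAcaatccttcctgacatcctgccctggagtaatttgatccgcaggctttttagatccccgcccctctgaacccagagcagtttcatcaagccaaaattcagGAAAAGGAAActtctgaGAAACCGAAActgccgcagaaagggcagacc
*B2m* held 1 match to the interferon-stimulated response element 139 bases before its start and 1 NF-kB match 126 bases before it. It also held 1 match to the letters TATAAA, on the other strand, 152 bases before it, and whether that is a working TATA box was not tested. *Ifitm3* held 2 interferon-stimulated response elements, starting at bases 3 and 20 of the transcribed part, and 1 AP-1 match 105 bases before the start. The response element was found in 3.43% of all promoters and the NF-kB match in 1.63%.

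Other genes among the 15 largest ratios were secreted or structural. *S100a9*, an alarmin of neutrophils and stressed keratinocytes, was at 26.1 CPM in UW and 626 CPM in W. *Wfdc18*, a secreted protein with a protease inhibitor fold, was at 11.8 CPM in UW and 199 CPM in W. *Lgals7*, the galectin of stratified epithelia, was at 109 CPM in UW and 1056 CPM in W. *Sprr1a*, a cornified envelope precursor, was at 61.6 CPM in UW and 501 CPM in W, and *Ecm1*, a secreted matrix protein, at 46.3 CPM and 282 CPM. The remaining 5, *Stmn1*, *Crip1*, *Tagln2*, *Ddx39* and *Ccdc71l*, had log2 ratios from 2.35 to 3.59. *S100a9* was also at 41.4 CPM in cluster 0 in W and at 19963 CPM in the neutrophil cluster, and its log2 ratio in cluster 5 was 4.57 without the cells that had a *Ptprc* or *Tyrobp* UMI.

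The 15 genes lowest in W over UW included 5 enzymes. Of the 15, only *Cbr2*, *Lypd2*, *Cryab*, *Cdo1* and *Aldh3a1* reached 100 CPM in both libraries, and the others did so in UW alone. *Cyp2a5*, a cytochrome P450 of olfactory and liver tissue, was at 527 CPM in UW and 44.9 CPM in W, a log2 ratio of -3.55 (-3.63 to -3.48). *Cbr2* had a log2 ratio of -2.76 (-2.79 to -2.74). *Cyp4a12b*, a fatty acid hydroxylase, was at 395 CPM in UW and 49.9 CPM in W. *Aldh3a1*, an aldehyde dehydrogenase abundant in the cornea, was at 3352 CPM in UW and 964 CPM in W, and *Cdo1*, which oxidizes cysteine, was at 984 CPM and 266 CPM. The rest had varied roles. *Lypd2*, a Ly6-family protein of superficial corneal cells, was at 1634 CPM in UW and 263 CPM in W. Its median in thinned cells was 3 UMIs in UW and 1 in W, the same as in the keratocyte-like cluster 0. The part that RNA carried over between cells has in this was not tested. *Dsg1a*, a desmosomal cadherin, was at 213 CPM in UW and 31.0 CPM in W, and *Scel*, a cornified envelope protein, at 288 CPM and 72.6 CPM. *Slc12a2*, the sodium-potassium-chloride cotransporter that drives fluid secretion, was at 253 CPM in UW and 60.4 CPM in W. *Kctd12*, an auxiliary subunit of GABA-B receptors, was at 309.5 CPM in UW and 41.0 CPM in W, *Snx31*, a sorting nexin, at 220.4 CPM and 34.5 CPM, and *Cryab*, a small heat shock protein, at 429 CPM and 105 CPM. The last 3 were *Slc39a8*, a zinc transporter, *Ccnd2*, a cyclin, and *Ly6g6c*, with log2 ratios of -2.35, -1.85 and -1.95. All 15 had negative log2 ratios in the other epithelial clusters as well, where *Cyp2a5* was at -3.34 and *Lypd2* at -1.97.

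The gene lists were counted over members that reached 50 CPM in either library. A member that reached it in W alone could only be higher there, and in UW alone only lower, so such members are named as such, and counts over members at 50 CPM in both libraries are given for lists that hold any. Of all 2106 genes at 50 CPM in both, 85 (4.04%) were at least 2-fold higher in W and 93 (4.42%) at least 2-fold lower.

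Of the conjunctival and simple keratins, 6 of 7 passed the filter on level. *Krt17* (log2 ratio 1.97, 1.95 to 1.99) was the only one at least 2-fold higher in W and *Krt8* (-1.43, -1.51 to -1.35) the only one at least 2-fold lower, from 133 CPM in UW to 49.5 CPM in W, so that it passed in UW alone. *Krt8* is the type II keratin of simple epithelia. The other 4 stayed within 2-fold, with *Krt4* at 0.13, *Krt19* at 0.21, *Krt13* at 0.36 and *Krt7* at -0.15. Of the marker keratins, *Krt4* and *Krt19* were thus within 2-fold and *Krt17* was not.

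Of 8 corneal epithelial genes tested, 3 were at least 2-fold lower in W. All 8 were at 50 CPM in both libraries, where 4.42% of all genes were as much lower, and none was above 0, with a median log2 ratio of -0.65. The 3 were *Krt12* at -1.22, *Aldh3a1* at -1.80 and *Lypd2* at -2.64. In cluster 0, *Lypd2* had a log2 ratio of -2.06 and the same thinned medians as in cluster 5, 3 UMIs in UW and 1 in W. *Slurp1*, a secreted Ly6-family protein of the corneal surface, was at 448 CPM in UW and 246 CPM in W, and *Aqp5*, a water channel, at 2037 CPM and 1933 CPM, a log2 ratio of -0.08 like that of the median gene tested. The same 8 genes had a median of -0.88 in the other epithelial clusters and of -1.08 in cluster 0.

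Of 6 membrane mucins, the glycoproteins of the surface glycocalyx, 4 were tested, of which *Muc15* passed in UW alone. Of the 3 at 50 CPM in both libraries, 1 was at least 2-fold lower, against 4.42% of all such genes, and none was above 0. *Muc4* was at 999.9 CPM in UW and 481 CPM in W (log2 ratio -1.06, -1.08 to -1.03). *Muc1* was at 159 CPM in UW and 89.2 CPM in W, *Muc20* at 103 CPM and 63.9 CPM, and *Muc15* at 59.9 CPM and 46.2 CPM. *Muc16*, the largest of the family, had 0 UMIs in UW and 2 in W. The other epithelial clusters summed held *Muc1* at 26.9 CPM in UW and 25.1 CPM in W, but cluster 7 alone held 138 CPM and 249.03 CPM, the latter above cluster 5. *Muc4* was at 902 CPM in UW and 385 CPM in W in the summed clusters and at 2542 CPM and 1859 CPM in cluster 7.

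Of 22 interferon-stimulated genes, 10 were tested, and 6 of these passed in W alone. Of the 4 at 50 CPM in both libraries, *Ifitm3* was the only one at least 2-fold higher, against 4.04% of all such genes, and their median was 0.39. The members that passed in W alone included *Ifi27l2a*, *Bst2*, which tethers enveloped viruses, at 3.79 CPM in UW and 63.4 CPM in W, *Ifit1* at 25.3 CPM and 66.0 CPM, and *Oasl1* at 43.2 CPM and 89.9 CPM. *Isg15*, the ubiquitin-like modifier, also in W alone, was at 40.3 CPM in UW and 63.3 CPM in W, and *Irf7*, the factor that sustains type I interferon and the last of the 6, at 28.6 CPM and 50.8 CPM. Of 10 class I presentation genes tested, 8 were at 50 CPM in both libraries, of which 3 were at least 2-fold higher in W and none lower, against 4.04% and 4.42% of all such genes, with a median of 0.86. The 3 were *B2m*, the heavy chains *H2-K1* (272 CPM in UW and 1065 CPM in W) and *H2-D1* (411 CPM and 921 CPM). The immunoproteasome subunits *Psmb9* (46.0 CPM and 96.7 CPM) and *Psmb10* passed in W alone. *Tapbp*, which loads peptides, was slightly lower, at 75.7 CPM in UW and 62.1 CPM in W. The class II list, whose summed level was 6.46 CPM in UW and 41.9 CPM in W, had no member past the filter.

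Of 8 antimicrobial and secreted defence genes tested, 4 were at 50 CPM in both libraries, of which 1 was at least 2-fold higher and 1 at least 2-fold lower, against 4.04% and 4.42% of all such genes. The higher one was *Wfdc2*, a secreted protein with a protease inhibitor fold, at 132 CPM in UW and 532 CPM in W. *S100a8*, *S100a9* and *Wfdc18* passed in W alone. *S100a8* was at 0.26 CPM in UW, 7 counts, and 70.9 CPM in W. The lower one was *Pglyrp1*, a peptidoglycan-binding protein, at 2400 CPM in UW and 1112 CPM in W, and *Slpi*, the secretory leukocyte protease inhibitor, passed in UW alone at 79.5 CPM and 27.2 CPM. *Defb1*, a constitutive beta-defensin, was at 949 CPM in UW and 567 CPM in W. The members of the list thus differed in both directions.

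Of 8 chemokine and cytokine genes tested, 5 passed in W alone, *Il33* and the 4 that were at least 2-fold higher, and the 2 at 50 CPM in both libraries were within 2-fold. *Cxcl3*, a neutrophil attractant, had 1 count in UW and 74.5 CPM in W (log2 ratio 10.97, 8.49 to 16.27), and *Cxcl2* was at 1.45 CPM in UW and 55.0 CPM in W. *Tslp*, an epithelial alarmin, was at 20.3 CPM in UW and 73.5 CPM in W, and *Il1a*, an alarmin stored in keratinocytes, at 27.3 CPM and 96.5 CPM. *Cxcl3* was at 5.24 CPM in cluster 0 and 996 CPM in the neutrophil cluster in W. Without the cells that had a *Ptprc* or *Tyrobp* UMI, the log2 ratio of *Cxcl3* was 10.96. *Il1rn*, the antagonist of interleukin-1 receptors, passed in UW alone and had a log2 ratio of -0.60.

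Of 10 wound keratins, EGF ligands and related genes tested, 7 were at 50 CPM in both libraries, of which 1 was at least 2-fold higher and none lower, with a median of -0.01. *Epgn*, *Plaur* and *Itgav* passed in W alone. *Krt16*, a keratin of hyperproliferative epithelium, was at 1107 CPM in UW and 4062 CPM in W (log2 ratio 1.88, 1.86 to 1.89). Its partners *Krt6a* (3869 CPM in UW and 4485 CPM in W) and *Krt6b* (5674 CPM and 3781 CPM) were already abundant in UW. Of the EGF receptor ligands, *Areg* was at 590 CPM in UW and 892 CPM in W and *Hbegf* at 781 CPM and 564 CPM. Of 8 limbal genes at 50 CPM in both libraries, 3 were at least 2-fold higher and 1 lower, against 4.04% and 4.42% of all such genes, with a median of 0.64. Those 3 were *Gpha2*, *Ifitm3* and *Lgals7*, while *Cd63* and *Wfdc18* were also past 2-fold but passed in W alone. *Gpha2*, a glycoprotein hormone subunit that marks limbal cells, was at 108 CPM in UW and 243 CPM in W, below the 821 CPM and 4206 CPM in cluster 0. Single other epithelial clusters held up to 1945.5 CPM in UW and 1412 CPM in W, and 8 of 9 had a log2 ratio above 0. *Socs3*, a brake on cytokine signalling, was the lower one, at 438 CPM in UW and 161 CPM in W.

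**Figure D3:**
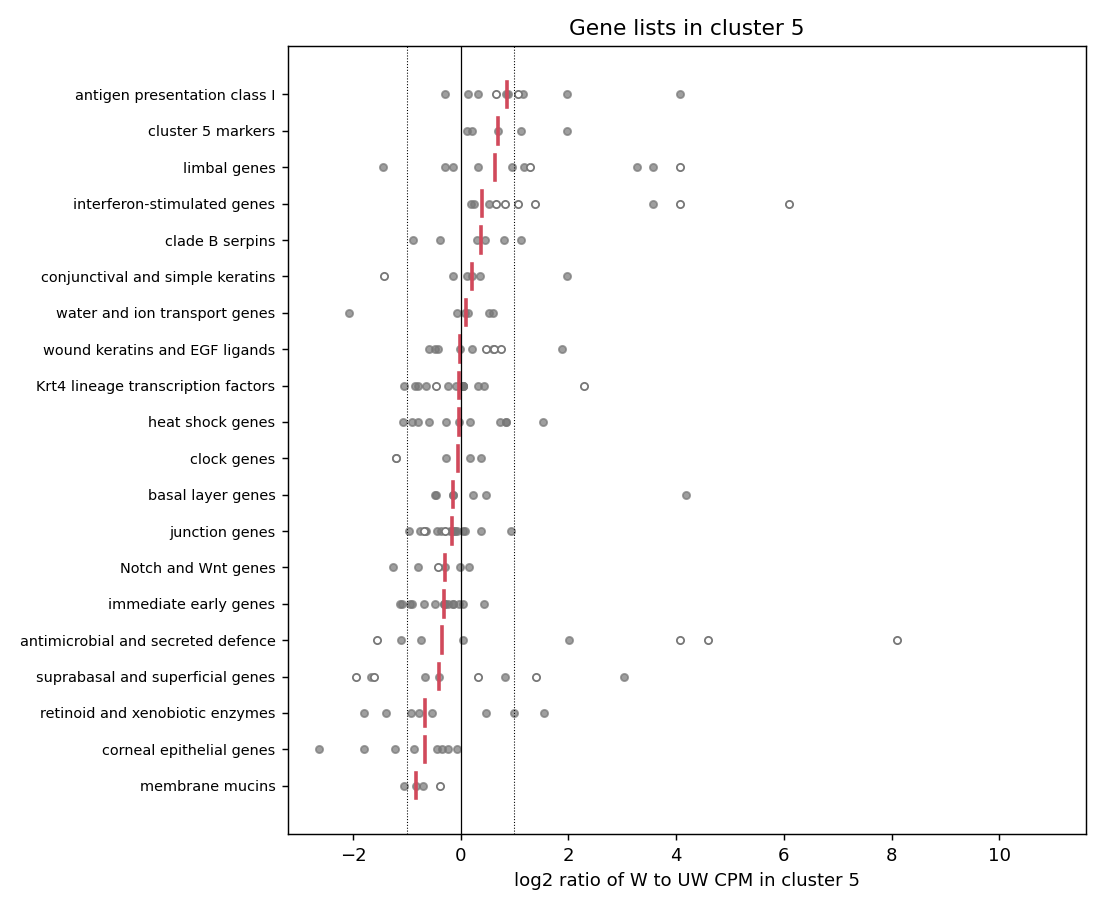
Log2 ratios of W to UW CPM in cluster 5 for the tested members of each gene list with at least 3 at 50 CPM in both libraries. Filled points reached it in both and open points in 1 library alone, the red bar is the median of the filled points, and dotted lines mark 2-fold. The defence and interferon genes farthest to the right are open points, and the medians run from -0.83 for membrane mucins to 0.86 for class I genes.

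Basal layer genes other than *Krt14* hardly differed. Of 7 tested, all at 50 CPM in both libraries, *Krt14* was the only one past 2-fold and the median was -0.13. *Krt5*, its type II partner, was at 7269 CPM in UW and 6609 CPM in W, and *Krt15* had a log2 ratio of -0.13. Of 17 junction genes tested, *Gja1* and *Cgn* passed in UW alone, and none of the 15 at 50 CPM in both libraries was past 2-fold, with a median of -0.16. *Dsp*, which anchors desmosomes to keratin, came nearest at 1267 CPM in UW and 655 CPM in W. Among 5 suprabasal and superficial genes at 50 CPM in both libraries, *Sprr1a* was at least 2-fold higher and *Upk1b*, a uroplakin, at least 2-fold lower, at 807 CPM in UW and 255 CPM in W. *Sbsn* and *Tmprss11d* passed in W alone, and *Krt78* and *Ly6g6c* in UW alone.

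Enzymes that handle retinoids and foreign compounds gave 1 higher and 2 lower of 8, against 4.04% and 4.42% of all genes at 50 CPM in both libraries, as all 8 were, with a median of -0.65. *Aldh1a3*, which makes retinoic acid, was at 98.6 CPM in UW and 289 CPM in W, whereas *Adh1*, an alcohol dehydrogenase, was at 893 CPM and 342 CPM. *Gsto1*, a glutathione transferase, was among the most abundant genes of the cluster at 26190 CPM in UW and 13868 CPM in W. Of the clade B serpins, 1 of 6 tested was past 2-fold, *Serpinb3a* (1.12, 1.09 to 1.14). *Serpinb11* was at 376 CPM in UW and 204 CPM in W. *Serpinb3b*, the near copy of *Serpinb3a*, had 0 UMIs in UW and 4 in W, and reads that the pair shares could have been assigned to neither. In the lipoxygenase and prostaglandin list 3 of 16 genes passed the filter. *Alox12e* was at least 2-fold lower (-1.15, -1.21 to -1.09), from 226 CPM in UW to 102 CPM in W, *Alox12* passed in UW alone at 70.4 CPM and 42.8 CPM, and *Alox15* had a log2 ratio of 0.69.

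Of 12 transcription factors of the ocular surface at 50 CPM in both libraries, *Grhl1* was the only one past 2-fold, with a median over the 12 of -0.02. *Otx1* passed in UW alone. *Creb5*, a cAMP-responsive factor, passed in W alone, at 12.0 CPM in UW and 58.2 CPM in W, while *Grhl1*, a grainyhead factor of epithelial barriers, was at 135 CPM and 64.9 CPM. *Elf3*, an epithelial ETS factor, was at 1174 CPM in UW and 1218 CPM in W, and *Klf5* at 508 CPM and 521 CPM. Of 5 Notch and Wnt genes at 50 CPM in both libraries, 1 was at least 2-fold lower and the median was -0.30, with the Notch target *Nrarp* at 222 CPM in UW and 93.1 CPM in W and *Hes1* at 710 CPM and 409 CPM. *Jag1* passed in UW alone. Of the water and ion transport genes, *Slc12a2* was the only one of 6 past 2-fold, and *Aqp3*, a water and glycerol channel, was at 1865 CPM in UW and 2053 CPM in W.

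Genes that tissue handling can alter were given beside these. Of 15 immediate early genes tested, 2 were at least 2-fold lower in W, *Jund* and *Egr1*, none was higher, and the median was -0.30. All 15 were at 50 CPM in both libraries, where 4.42% of all genes were as much lower. *Fos* was at 2025 CPM in UW and 1049 CPM in W. Of 11 heat shock genes, *Hspe1* was at least 2-fold higher and *Hspa1b* at least 2-fold lower, with a median of -0.04. Of 4 clock genes at 50 CPM in both libraries, *Hlf* was the only one at least 2-fold lower, against 4.42% of all such genes, with a median of -0.05. *Dbp* was also at least 2-fold lower but passed in UW alone. The hour at which each library was taken is not given in the sources used here. The part of tissue handling and of the hour in the other differences was not tested.

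Transcripts of dividing cells were set against cluster 0. At 5000 UMIs per cell, 16 of 1066 UW cells (95% interval of the share 0.86% to 2.43%) and 86 of 1173 W cells (7.33%, 5.91 to 8.98) held a *Mki67* or *Top2a* UMI. The share of cluster 0 cells was 2.63% in UW (2.02 to 3.37) and 3.57% in W (2.74 to 4.56), so that cluster 5 was above it in W but not in UW. The 20 G2/M genes summed to 34.4 CPM in UW and 181 CPM in W, against 37.0 CPM and 76.6 CPM in cluster 0. The 20 S phase genes summed to 124 CPM and 251 CPM, against 218 CPM and 254 CPM in cluster 0, and were thus not above it in either library. No member of either list reached the filter. Over the other epithelial clusters summed, the G2/M genes were at 202 CPM in UW and 832 CPM in W, a sum that includes cluster 8 with 3886 CPM and 2689 CPM.

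Ratios in cluster 5 were set beside those of the other epithelial clusters, and the 10 genes farthest apart in each direction were taken as a description. Those farthest below included genes high in the cluster, such as *Serpinb3a* and *Alox12e*, but also genes that do not mark it. *Ccnd2*, for 1, was at 44.8 CPM in cluster 5 in W against 96.0 CPM in the others. *Ifitm3* was at 1076 CPM against 1689 CPM there. *Barx2*, a homeobox factor, had a log2 ratio of 1.18 in cluster 5 and 3.95 in the others, and *Serpinb3a* 1.12 and 3.58. The levels show what the ratios compare. *Serpinb3a* was at 5.10 CPM in UW and 61.1 CPM in W in the other epithelial clusters, and at 2.46 CPM and 20.6 CPM in cluster 0. *Alox12e* was lower in W in cluster 5, but in the other epithelial clusters it was at 3.63 CPM in UW and 11.1 CPM in W, higher in 9 of 9 of them and also in cluster 0, at 0.91 CPM and 2.71 CPM. *Krt8* was at 6.61 CPM in UW and 13.4 CPM in W in the others, and *Cyp2f2* at 10.3 CPM and 30.0 CPM. Single clusters were higher than these sums, with *Cyp2f2* at 139 CPM in UW and 136 CPM in W in cluster 9, the latter above the 129 CPM of cluster 5, *Krt8* at 46.2 CPM in W in cluster 3 and *Barx2* at 115 CPM in W in cluster 9. The part that RNA carried over between cells has in these levels was not tested.

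Farthest above were *AA467197*, *Plac8*, *Adh6a*, *Stmn1*, *Crip1*, *Ly6g6c*, *Psca*, *Gadd45b*, *Pla2g16* and *Capns2*. *AA467197* was at 24.9 CPM in UW and 120.2 CPM in W in cluster 5 and at 364 CPM and 305 CPM in the other epithelial clusters summed, yet 6 of those 9 clusters had a log2 ratio above 0. *Plac8* was at 388 CPM in UW and 986 CPM in W in cluster 5 and at 1749 CPM and 1289 CPM in the others, of which 4 of 9 were above 0. *Adh6a*, an alcohol dehydrogenase, was at 87.9 CPM in UW and 181 CPM in W against 54.3 CPM and 37.1 CPM, with 2 of 9 above 0. *Gadd45b*, a stress-response gene, was at 179 CPM in UW and 243 CPM in W, against a log2 ratio of -0.81 in the others, with 1 of 9 above 0. A ratio over summed clusters also moves with the mix of clusters in each library. *Psca*, a surface protein of differentiated epithelia, had a log2 ratio of -0.41 in cluster 5 and of -1.74 over the sum of the others, which ranged from -1.80 to -0.15 taken 1 cluster at a time.

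Within the cluster, cells were not alike. After thinning, UW cells held a median of 9 *Krt4* UMIs with quartiles of 3 and 21, and W cells a median of 8 with quartiles of 3 and 23. *Krt4* was seen in 88.0% (85.9 to 89.9) of UW and 90.7% (88.9 to 92.3) of W cells, against 6.99% and 18.8% of cells in cluster 0 at the same depth. Both *Krt4* and *Krt19* were seen in 65.9% of UW and 65.8% of W cells. Without thinning, 96.4% of UW and 99.5% of W cells had a UMI of either gene. *Krt15* was seen in 100% (99.7 to 100) of thinned UW cells and 99.9% of W cells, against 67.2% and 86.8% in cluster 0. *Muc4* was seen in 75.4% of UW and 47.3% of W cells.

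Genes were then ordered by their Spearman correlation with *Krt4* over the thinned cells of each library, 2249 genes in all, as a description in which all genes share each cell's fixed depth. *Krt13* was most like *Krt4*, with a rho of 0.54 in UW and 0.67 in W. *Krt19* (0.51 and 0.47), *Hopx*, a homeodomain-only cofactor (0.43 and 0.53), *Gsto1* (0.42 and 0.58) and *Krt15* (0.42 and 0.58) followed, with *Anxa2*, *Asprv1* and *Tmsb4x* making up the 8. The 8 least like it were *Tkt*, *Eef1b2*, *Eef1a1*, *Tpt1*, *Mt1*, *Rack1*, *Fau* and *Ftl1*, of which several belong to the translation machinery. The 80 ribosomal protein genes had a median rho of -0.32 in UW and -0.41 in W with *Krt4*, and of 0.45 in both libraries with *Krt14*. The ribosomal protein genes thus had opposite signs with these keratins. *Krt14* itself had a rho of -0.13 in UW and -0.15 in W with *Krt4*, and of -0.38 and -0.52 with *Krt19*.

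The 8 genes least like *Krt14* were *Gsto1*, *Tmsb4x*, *Muc4*, *Mal*, *Hopx*, *Pglyrp1*, *Emp1* and *Fth1*. *Muc4* had a rho of -0.49 in UW and -0.56 in W with *Krt14*, *Mal*, a membrane raft protein, -0.55 and -0.47, and *Gsto1* -0.53 in both. *Krt17* went with *Krt14* (0.41 and 0.39) and not with *Krt4* (-0.07 and -0.06). *Serpinb3a* went with both, at 0.20 in UW and 0.31 in W with *Krt4* and at 0.17 and 0.37 with *Krt14*. *Krt12* was negative with *Krt4* in UW (-0.34) and closer to 0 in W (-0.15). The markers *Krt4* and *Krt17* therefore did not vary together within the cluster.

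**Figure D4:**
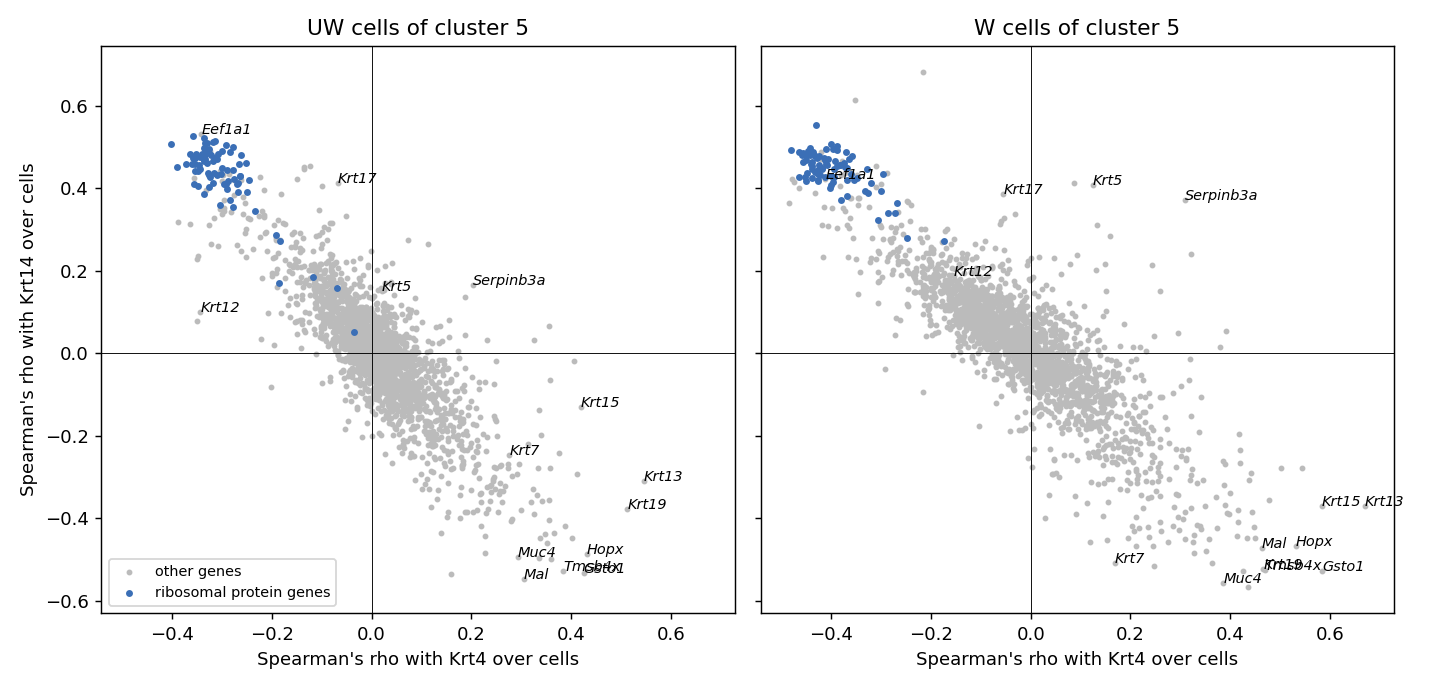
Spearman's rho over thinned cells of cluster 5 with *Krt4* (x axis) and with *Krt14* (y axis) for the genes compared, in 1066 UW cells (left) and 1173 W cells (right), with *Krt4* and *Krt14* themselves left out. In both libraries the ribosomal protein genes (blue) lie at the upper left, *Krt13*, *Krt19*, *Hopx*, *Gsto1*, *Mal* and *Muc4* at the lower right, and *Serpinb3a* to the right of 0 on both axes.

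Markers of other cell types were low in the cluster. The 10 stromal markers summed to 332 CPM in UW and 372 CPM in W, against 85044 CPM and 47073 CPM in cluster 0, and *Dcn*, at 171 CPM and 170 CPM, was the only one past the filter. The 12 immune markers summed to 59.8 CPM in UW and 75.9 CPM in W, of which *Itgam*, which passed in UW alone, made up 57.8 CPM and 32.1 CPM, with *Ptprc* at 0 UMIs in UW and 26 in W. The 6 melanocyte markers summed to 1.26 CPM and 1.19 CPM, the 5 endothelial markers to 1.08 CPM and 1.82 CPM, and the 5 nerve and Schwann cell markers to 1.30 CPM and 2.29 CPM.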

How the data were processed

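Corneas of unwounded mice (UW) and of mice 24 h after an epithelial scrape (W) were profiled by 10x Genomics 3′ single-cell RNA-seq, 1 library of 4 pooled mice each. The kit is named v3 in the labels and V2 in the methods of the study. The authors made the UMI counts with Cell Ranger 3.1.0 (mm9 per the labels, mm10 per the study's methods), and filtered on gene number (500 to 8000), mitochondrial share (up to 10%) and detection in 5 or more cells. They then removed doublets and clustered the integrated data in Seurat. The files hold fewer cells than the study states. The deposited table holds counts without normalization for 20198 genes, and the deposited cell table gives library and cluster but no cell type names.

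Counts were summed over cluster 5 per library in Python 3.11.15 (numpy 2.4.6, pandas 2.3.3, scipy 1.17.1), and given as CPM of the sum with exact Poisson 95% intervals and shares with exact Clopper-Pearson 95% intervals. Genes needed 50 CPM in a library and 20 counts, and 2-fold was the threshold. A sum of 0 allows 3 counts. Clusters 1 to 9 and 11 were taken as epithelial. Cells were thinned to 5000 UMIs for shares and correlations, leaving out 34 UW and 28 W cells of cluster 5 and 51 and 11 of cluster 0, and no doublet caller was run anew. Scalings by TMM (edgeR 4.0.16) and median-of-ratios factors (DESeq2 1.42.0, R 4.3.3) were alternatives. The ratio step was tested on simulated counts, and the thinning step was checked on measured cells of cluster 5. Gene positions are from GENCODE M21, matched by symbol for 19908 genes, and promoters from RefSeq.

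Genes were named by a rule: members of the gene lists, the 15 highest over the other epithelial clusters, the 15 largest and 15 smallest ratios of W to UW at 100 CPM or more, the 10 largest differences from the other epithelial clusters in each direction, and the 8 highest and 8 lowest correlations with *Krt4*, without mitochondrial, haemoglobin and ribosomal protein genes. The values of *Krt17*, *Krt7*, *Krt13*, *Cyp2f2* and *Gpha2* in single other clusters and the correlations with *Krt14* and *Krt19* beyond the rule were chosen after values were seen. The members and lists were chosen with earlier results of these data known.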

Additional observations from a re-analysis of the deposited data

Results flagged for a closer look

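Over the genes tested, 225 of 2806 had log2 ratios of W to UW with opposite signs in cluster 5 and in the other epithelial clusters summed, with both counting intervals away from 0. Of the 55 genes named for the size of a ratio, 10 did so. The difference was not tested, since each condition is 1 library. In cluster 5 the log2 ratio was 2.27 for *AA467197*, 1.34 for *Plac8*, 1.04 for *Adh6a*, 0.44 for *Gadd45b*, -1.15 for *Alox12e*, -1.43 for *Krt8*, -0.77 for *Cyp2f2*, -0.13 for *Krt15*, -0.15 for *Krt7* and -0.17 for *Tppp3*. In the other epithelial clusters it was -0.25, -0.44, -0.55, -0.81, 1.61, 1.02, 1.54, 0.54, 0.22 and 0.07 in the same order. Taken 1 cluster at a time, *Alox12e* was higher in W in 9 of 9, *Cyp2f2* in 7, *Krt8* and *AA467197* in 6, *Plac8* in 4, *Adh6a* in 2 and *Gadd45b* in 1.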

How the results depend on the processing

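No paired analysis was possible because each condition is 1 library, and no library could be left out. Without the CPM filter (12830 genes tested) 1623 genes were at least 2-fold higher in W and 959 lower, and with a 100 CPM filter (1519 genes tested) 102 and 119. At 50 CPM in both libraries (2106 genes), a setting chosen after seeing the data, they were 85 and 93, 6 lists in place of 10 had a median of at least 0.5 in size, and the defence gene median turned from 1.03 to -0.35, since members that reached 50 CPM in 1 library alone were left out. Of epithelial cells, cluster 5 was 8.15% in UW and 14.1% in W. The other settings were TMM and median-of-ratios scaling, a stricter cell filter, leaving out cells lacking *Krt4* and *Krt19*, with *Ptprc* or *Tyrobp*, or with *Mki67* or *Top2a*, or first-run doublets, thinning and means over cells. They gave 141 to 169 higher and 195 to 215 lower genes. Under these, no log2 ratio past 2-fold changed sign. Of the named genes' log2 ratios, 162 moved beyond their counting interval and 387 did not, with 45 of 61 moving when thinned and 39 of 61 over cell means. Of all list medians, 208 moved by at most 0.25. The chemokine median of 1.24 became 0.64 without *Ptprc* or *Tyrobp* cells, and 1.68 to 1.83 thinned, over cell means, or without doublets or *Mki67* or *Top2a* cells, and the clock gene median of -0.27 became -0.65 over cell means; the cause was not tested. *Krt14* was at 3.75 thinned and 3.66 over cell means, and *Cyp2a5* at -4.08 without doublets. The first-run doublet and stricter filter settings for cluster 5 against other epithelium were chosen after seeing the data. Pools of 4 mice and 1 library per condition limit every value.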
